A study of Arabidopsis thaliana with 24 samples.

Results

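The CSLB, CSLE and CSLG genes are 3 families of cellulose synthase-like genes, and they were chosen by name: the rows CSLB1 to CSLB6, CSLE1 and CSLG1 to CSLG3, 10 of the 33602 genes in the deposited count table. They were selected on a result of these data, since their counts after 3 h of dexamethasone (Dex) were in view when the families were picked. Every contrast that uses a 3 h library is therefore a description: calls are counted there only to set the members beside all genes, and no p-value is given. Tests are read for the 7-day and the no-Dex libraries only.

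Cellulose synthase-like (CSL) proteins are glycosyltransferases related to the cellulose synthases (CESA), which make cellulose at the plasma membrane. Several CSL families make the backbones of cell wall (CW) polysaccharides: CSLA proteins make mannans, CSLC proteins make the glucan backbone of xyloglucan, and CSLD proteins act in tip growth and in building new walls at cell division. The products of the CSLB, CSLE and CSLG proteins of Arabidopsis are not established, while enzymes of the CSLG type in spinach and licorice transfer glucuronic acid to triterpenoids during saponin synthesis.

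RNA was sequenced from shoots of Arabidopsis thaliana Col-0 seedlings aged 7 days, in 24 libraries that formed 6 groups of 4 biological replicates. The EXPA1 OE line 8-4, a single transgenic line in which the RPS5A promoter drives a Dex-activated transcription factor that switches on EXPA1 (pOp6/LhGR system), had grown on MS medium with no Dex, had received Dex 3 h before harvest, or had stood on Dex for all 7 days. Wild type (WT) received the same 3 treatments, so the WT libraries at 3 h and 7 days hold Dex but no added EXPA1. EXPA1 encodes an expansin, a protein that loosens CWs. No mock treatment and no harvest times are given in the sources used here, so Dex and the way it was applied cannot be told apart in the contrasts with no Dex.

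Libraries held 33618231 to 82187350 estimated counts. EXPA1 was at 18381 ± 487 CPM (SD, n = 4) in OE shoots at 3 h of Dex and at 13237 ± 2053 CPM at 7 days, against 428 ± 41.2 CPM in the OE line without Dex and 365 to 387 CPM on average in the 3 WT groups. CPM are counts scaled to a common library size, which was adjusted here by the trimmed mean of M-values (TMM). The 8 shoot markers summed to 51645 to 97323 CPM in every library, and OE libraries after 3 h were the lowest group, at 51645 to 59924 CPM against 67803 to 76210 CPM in WT after 3 h. The 10 root markers summed to 234 to 312 CPM in the OE line after 3 h, against 711 to 759 CPM in WT after 3 h. That sum was led by PYK10, whose log2 fold change was -1.46, while the other 9 root markers were above 0 (median of all 10, 0.775) and EXPA7, COBL9 and LRX1 were called higher. Without Dex the root markers summed to 1026 to 1173 CPM in the OE line against 1409 to 2265 CPM in WT. After 7 days these sums were 915 to 1413 CPM against 1538 to 1829 CPM. Of the root markers tested, 4 of 9 were called lower in the OE line without Dex and 0 of 10 after 7 days. Of all genes tested, 2.93% and 1.65% were called lower there. The 11 seed markers summed to 2.14 to 29.9 CPM in the OE line against 23.5 to 146 CPM in WT after 3 h. Without Dex they summed to 3.19 to 22.7 CPM in the OE line against 144 to 301 CPM in WT, and after 7 days to 6.94 to 77.4 CPM against 185 to 253 CPM. No gene of the 3 lists was at 0 in all libraries of a group, and the part of these cell types and tissues in the results below was not tested. In whole shoots, fewer cells of a type and less RNA per cell cannot be told apart. Replicate 2 of the OE line after 3 h stood apart, with 21.5% of its counts in its 10 highest genes against 9.19% to 12.9% in the other libraries. The counts of members called in the 3 h contrasts were the same without it.

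The 10 genes lie in 4 places of the TAIR10 genome, given here with the coordinates of the deposited exon table. CSLB3 (AT2G32530, chr2:13809216-13813570), CSLB4 (AT2G32540, chr2:13814686-13818289), CSLB1 (AT2G32610, chr2:13836234-13839513) and CSLB2 (AT2G32620, chr2:13840744-13844324) follow in this order on the plus strand with 9 exons each, and 5 other genes lie between CSLB4 and CSLB1. CSLB5 (AT4G15290, chr4:8721487-8726669, 9 exons) and CSLB6 (AT4G15320, chr4:8742639-8747981, 12 exons) lie on the minus strand. CSLG3 (AT4G23990, chr4:12456489-12460753), CSLG2 (AT4G24000, chr4:12462030-12465625) and CSLG1 (AT4G24010, chr4:12466345-12469844) form a plus-strand row of 5 exons each with no other gene between them. CSLE1 (AT1G55850, chr1:20876699-20879482, plus strand, 6 exons) stands alone. CSLE1 shares 17 bases with UPL1 and CSLG1 shares 103 bases with AT4G24015, both on the other strand, and the strand setting of the exon counting is not given.

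These copies are alike enough for reads to be shared among them. Exon sequences were 89.7% identical between CSLB5 and CSLB6, 88.8% between CSLB3 and CSLB4 and 83.6% to 84.8% among the CSLG genes. Of all exon windows of 50 bases, 23.3% in CSLB6 and 15.4% in CSLB5 also occurred elsewhere in the genome, against 3.42% in CSLB3, 1.58% in CSLB4, 1.01% in CSLG3 and 0% in CSLE1. The deposited exon counts, made by another counter, summed to 99.8% to 102% of the estimated counts for CSLB3, CSLB4, CSLE1 and CSLG3, but to 63.0% for CSLB5 and 114% for CSLB6. Values of CSLB5 and CSLB6 are therefore uncertain. For CSLB3, CSLB4, CSLE1 and CSLG3 no log2 fold change moved by more than 0.093 between the count tables.

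The start regions of 4 members are printed because these genes gave the largest or the clearest differences below. Each runs from 250 bases before to 50 bases after the gene start of NCBI RefSeq in TAIR10.1, on the plus strand. Capitals mark TTGAC, the core of the W-box to which WRKY factors bind. TTGAC and CACGTG, the core of the G-box to which bHLH and bZIP factors bind, were searched on both strands. CSLB3 is at chr2:13808769-13809068, CSLB4 at chr2:13814293-13814592, CSLE1 at chr1:20876190-20876489, and CSLG3 at chr4:12456092-12456391.
CSLB3: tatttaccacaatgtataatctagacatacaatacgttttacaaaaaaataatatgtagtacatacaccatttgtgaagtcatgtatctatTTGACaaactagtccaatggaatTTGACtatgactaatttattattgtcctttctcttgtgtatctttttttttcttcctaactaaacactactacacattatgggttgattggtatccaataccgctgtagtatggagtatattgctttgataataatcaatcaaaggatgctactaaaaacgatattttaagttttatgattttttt
CSLB4: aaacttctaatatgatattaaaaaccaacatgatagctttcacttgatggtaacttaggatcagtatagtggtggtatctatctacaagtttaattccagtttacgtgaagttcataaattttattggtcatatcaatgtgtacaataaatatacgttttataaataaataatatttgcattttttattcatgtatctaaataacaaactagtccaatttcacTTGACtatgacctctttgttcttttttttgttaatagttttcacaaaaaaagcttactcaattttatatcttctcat
CSLE1: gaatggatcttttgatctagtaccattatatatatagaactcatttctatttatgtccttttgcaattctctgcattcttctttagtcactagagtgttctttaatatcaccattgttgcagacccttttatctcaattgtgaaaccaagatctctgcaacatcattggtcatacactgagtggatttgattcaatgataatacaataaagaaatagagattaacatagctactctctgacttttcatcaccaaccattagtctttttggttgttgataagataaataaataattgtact
CSLG3: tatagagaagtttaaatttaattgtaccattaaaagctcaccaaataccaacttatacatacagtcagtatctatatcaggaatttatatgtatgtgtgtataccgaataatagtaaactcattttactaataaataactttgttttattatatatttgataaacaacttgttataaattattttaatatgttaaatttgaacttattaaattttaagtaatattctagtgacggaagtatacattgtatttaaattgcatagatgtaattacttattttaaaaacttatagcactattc

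TTGAC occurred in 7 of the 10 members, and in 50.5% of the 27443 promoters of the same length. CSLB3 held it at -159 and -136 from the start, and CSLB4 held it at -27. CACGTG occurred in 2 of 10 members and in 7.68% of all promoters, and in none of the windows printed. The windows of the neighbours CSLB3 and CSLB4 shared the run acaaactagtccaat of 15 bases, which begins at -156 in CSLB3 and at -47 in CSLB4 and is followed by TTGAC within a few bases in both. A match of letters is a description and not a binding site.

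To set levels of different genes side by side, CPM were divided by exon length in kb (RPKM). CSLB4 was the highest member without Dex, at 32.2 ± 4.81 RPKM in the OE line and 37.7 ± 10.5 RPKM in WT (SD, n = 4 each). CSLB3 followed with 16.4 ± 2.85 and 24.8 ± 7.67 RPKM, and CSLE1 with 9.38 ± 0.563 and 13.8 ± 1.64 RPKM. CSLG3 and CSLB6 were lower, with 2.51 ± 0.350 and 0.830 ± 0.0720 RPKM in the OE line and 3.57 ± 1.67 and 0.722 ± 0.357 RPKM in WT. In these no-Dex groups the ranges of CSLB4 and CSLB3 overlapped in WT but not in the OE line, and those of CSLB6 and CSLG1 overlapped in WT. CSLG1, CSLG2, CSLB5, CSLB1 and CSLB2 averaged at most 0.445 RPKM in any group, and most neighbours among them overlapped.

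The order changed after 3 h of Dex in both genotypes. CSLE1 then stood first with 26.3 ± 4.91 RPKM in the OE line and 82.8 ± 14.5 RPKM in WT, and its range overlapped with that of no other member. Of the summed RPKM of all 10 genes, CSLE1 made up 68.9% in the OE line and 72.9% in WT at 3 h, against 15.2% and 17.0% without Dex and 36.2% and 23.5% after 7 days. CSLB4 made up 20.0% in the OE line and 15.6% in WT at 3 h, and 52.1% and 46.4% without Dex. After 7 days CSLB4 was again the highest by mean, at 17.0 ± 9.28 RPKM in the OE line and 30.7 ± 13 RPKM in WT. The ranges of CSLB4, CSLE1 and CSLB3 overlapped in both genotypes at that time.

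**Figure D1:**
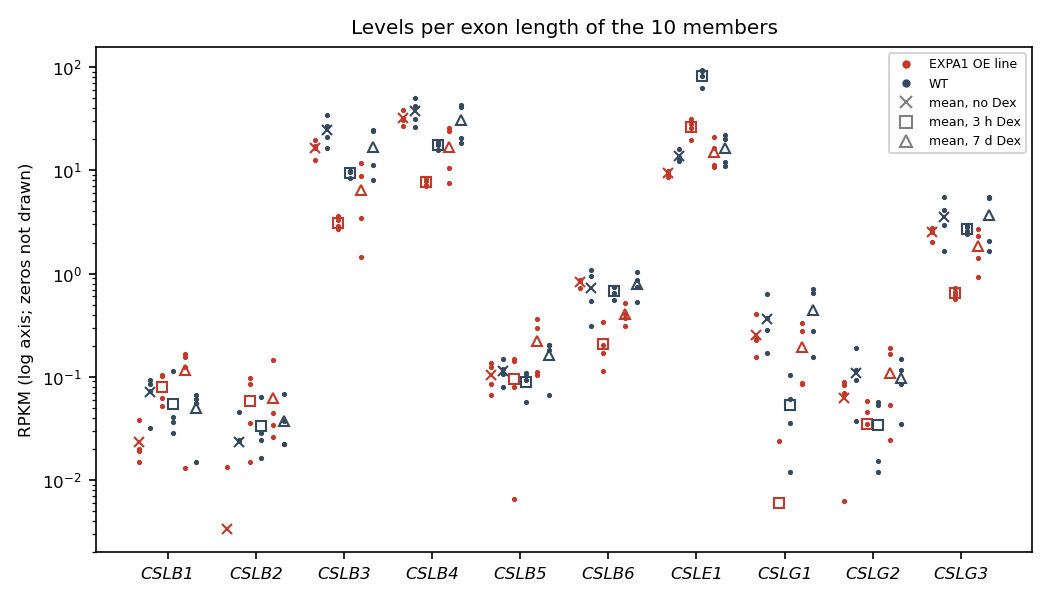
RPKM (log axis) of the 10 members in each library (dots; zeros are not drawn) and the mean of each group of 4 libraries (crosses without Dex, squares after 3 h, triangles after 7 days), in red for the OE line and dark for WT. CSLB4 leads without Dex, with 32.2 RPKM in the OE line and 37.7 RPKM in WT, and CSLE1 leads after 3 h, with 26.3 RPKM in the OE line and 82.8 RPKM in WT.

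The first contrast asks how the families stood when the added EXPA1 had been on for 3 h, with Dex in both genotypes. Of the 6 members that passed the filter on low counts, 5 were lower in the OE line by the call rule of the study (adjusted p below 0.05, and a log2 fold change of 1 or more up or down), where 4.89% of all 20449 genes tested were called lower. The choice of members used this contrast, so nothing is read from that count. In the same 5 genes all OE libraries lay below all WT libraries, as did 24.5% of all genes tested. The median log2 fold change was -1.61 over the 6 members and 0.0155 over all genes tested.

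CSLB3 had 6.98, 8.65, 6.53 and 8.07 CPM in the OE libraries at 3 h, against 23.1, 23.9, 24 and 20.3 CPM in WT. CSLB4 had 18.0, 18.9, 16.3 and 16.1 CPM in the OE libraries, against 42.0, 43.1, 40.1 and 35.9 CPM in WT. Both neighbours were low in all 4 OE libraries and tight within each genotype, and the log2 fold changes were -1.58 ± 0.10 (SE) for CSLB3 and -1.20 ± 0.07 for CSLB4. CSLB6, the less certain member of the pair on chromosome 4, had 0.842, 0.284, 0.421 and 0.503 CPM in the OE libraries against 1.39, 1.63, 1.83 and 1.83 CPM in WT. Its log2 fold change was -1.69 ± 0.28.

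CSLE1 had 45.6, 59.6, 65.4 and 72.3 CPM in the OE libraries at 3 h, against 217, 189, 214 and 145 CPM in WT. All OE libraries were well under the lowest WT library, and the log2 fold change was -1.64 ± 0.15, a 3.12-fold lower level. CSLG3 had 1.57, 1.83, 1.41 and 1.67 CPM in the OE libraries, against 7.04, 7.35, 6.13 and 6.47 CPM in WT. This was the largest difference among the members that passed the filter, with a log2 fold change of -2.04 ± 0.11. CSLG1 did not pass the filter, with 3 counts over the 4 OE libraries and 22 over the 4 WT libraries. The ratio of its pooled counts, scaled by library totals without TMM, was 0.107 (95% interval 0.0204 to 0.355, counting error only). Nearest to the fold threshold on either side were CSLB4, at -1.20, and CSLB5, which was not called, at 0.07 ± 0.59.

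**Figure D2:**
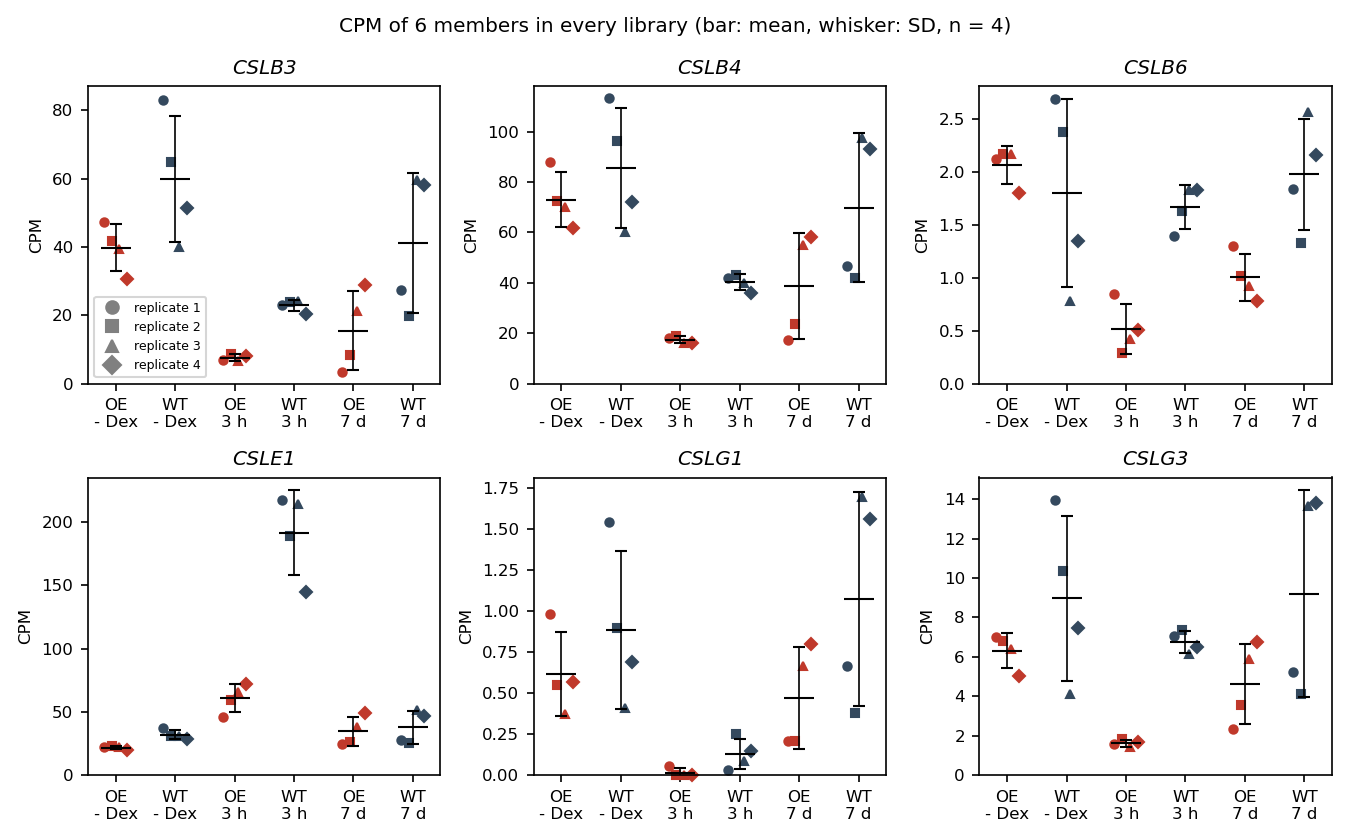
CPM of 6 members in each library, with OE libraries in red and WT libraries in dark, marker shapes for the replicate numbers, a bar for the mean and a whisker for 1 SD (n = 4). CSLB3, CSLB4 and CSLG3 are low in the OE line after 3 h, and CSLE1 is high in WT after 3 h, at 145 to 217 CPM.

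Set against its own no-Dex libraries, the OE line after 3 h had 1 member higher and 5 lower of 7 tested, where 9.05% of all 20548 genes tested were called higher and 9.06% lower. CSLB3 had 6.53 to 8.65 CPM after 3 h against 30.6 to 47.2 CPM without Dex, a log2 fold change of -2.40 ± 0.13. CSLB4 had 16.1 to 18.9 CPM after 3 h against 61.6 to 87.8 CPM without Dex, and its log2 fold change was -2.08 ± 0.10. No library of either gene after 3 h reached a library without Dex. CSLG3 (-1.97 ± 0.13) and CSLB6 (-2.01 ± 0.26) were lower as well, while CSLB5 was at -0.14 ± 0.57. CSLG1 had 3, 0, 0 and 0 counts after 3 h, against 65, 19, 17 and 33 counts without Dex. CSLG1 passed the filter through these no-Dex libraries, so the filter favoured its call as lower. The ratio of its pooled counts, scaled by library totals without TMM, was 0.0210 (95% interval 0.00427 to 0.0626, counting error only). CSLE1 went the other way, with 45.6 to 72.3 CPM after 3 h against 19.8 to 22.6 CPM without Dex and a log2 fold change of 1.48 ± 0.12.

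WT after 3 h of Dex had 1 member higher and 3 lower of 7 tested, where 3.57% of all 20571 genes tested were called higher and 5.38% lower. CSLE1 was again the higher one, with 145 to 217 CPM after 3 h against 28.7 to 37.5 CPM without Dex, a 6.03-fold higher level (log2 fold change 2.59 ± 0.14). CSLB3 had 20.3 to 24 CPM after 3 h against 40.0 to 83.1 CPM without Dex, a log2 fold change of -1.38 ± 0.20. CSLB4 had 35.9 to 43.1 CPM against 60.3 to 113 CPM, at -1.08 ± 0.18. CSLB4 was no longer past the fold threshold without WT replicate 1 of the no-Dex group, at -0.93. CSLG1 had 1, 9, 4 and 8 counts after 3 h against 103, 50, 22 and 53 counts without Dex, at -2.76 ± 0.56. It passed the filter through its no-Dex libraries, so the filter favoured a call as lower. CSLG3 (-0.41 ± 0.31), CSLB5 (-0.32 ± 0.30) and CSLB6 (-0.09 ± 0.35) were not called. So CSLE1 was higher and CSLB3, CSLB4 and CSLG1 were lower after 3 h also where no EXPA1 had been added.

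The difference between these responses, the change in the OE line minus the change in WT, was called for 6 members of 9 tested, 5 of them lower and 1 higher, where 12.2% of all 21090 genes tested were called in either direction. CSLB6 (-1.92 ± 0.47), CSLG3 (-1.57 ± 0.36), CSLE1 (-1.11 ± 0.20), CSLB3 (-1.03 ± 0.26) and CSLB4 (-1.01 ± 0.22) were the lower ones. CSLE1 thus stood among them with a smaller gain in the OE line, and CSLB3 and CSLB4 with a larger loss. CSLB3, CSLB4 and CSLE1 lie at the fold threshold. CSLB3 fell short of it, at -0.98 to -0.87, without OE replicate 1 or 2 of the no-Dex group, OE replicate 1 or 3 or WT replicate 3 at 3 h, or WT replicate 3 or 4 of the no-Dex group. CSLB4 did so, at -0.99 to -0.88, without OE replicate 1 or 2 or WT replicate 3 or 4 of the no-Dex group, or without OE replicate 3 or 4 or WT replicate 1, 2 or 3 at 3 h. CSLE1 did so without OE replicate 1 at 3 h, at -0.97. With all 24 libraries in 1 fit CSLB3 (-0.99) and CSLB4 (-0.98) missed both the fold and the adjusted p threshold. CSLB4 also missed the fold threshold with exon counts (-0.97), DESeq2, RLE size factors (-0.99 each) and a minimum of 10 counts per library (-0.996). CSLB1, at 2.26 ± 0.70, was the higher one and rests on few counts. With all libraries it passed the filter on low counts in no pairwise contrast. CSLG1 (-2.57 ± 1.12), CSLG2 (0.89 ± 1.08) and CSLB5 (0.18 ± 0.71) had wide errors, and CSLG1 met the call rule without WT replicate 1 of the no-Dex group (-2.98) or without OE replicate 1 at 3 h, which held all 3 OE counts. These contrasts share libraries with each other and with the contrast of the genotypes at 3 h.

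**Figure D3:**
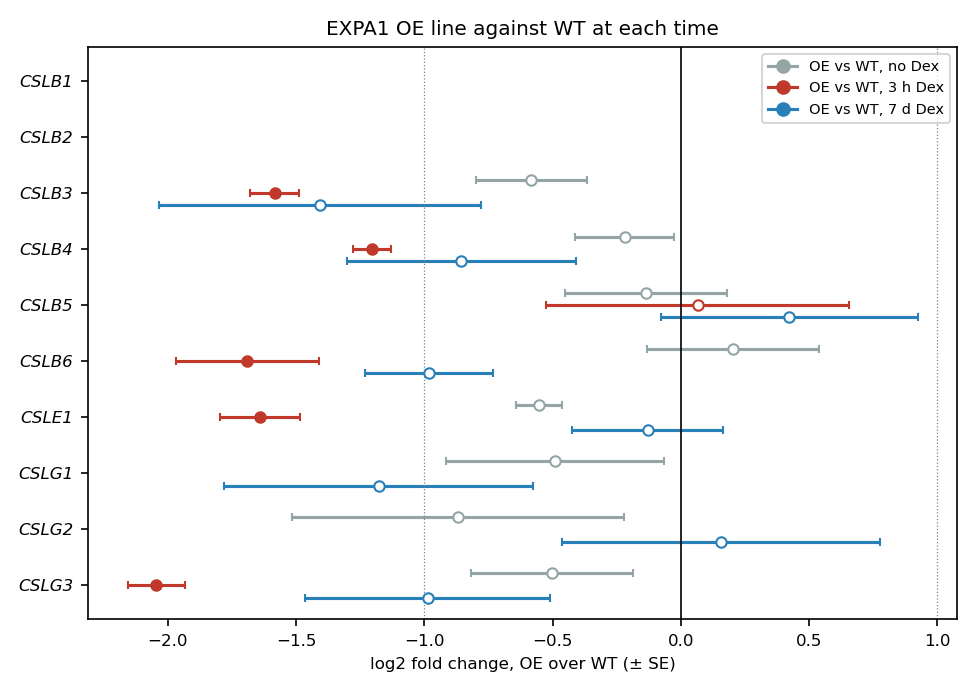
Log2 fold changes of the OE line against WT for the members tested (points) with 1 SE (bars), without Dex (grey), after 3 h (red) and after 7 days (blue). Filled symbols mark called members. At 3 h the OE line is below WT in 5 of 6 members tested, and at 7 days no member is called between the genotypes.

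After 7 days on Dex, none of the 8 members tested was called between the OE line and WT by edgeR's quasi-likelihood test with Benjamini-Hochberg adjustment, where 3.88% of all 20665 genes tested were called. DESeq2 also called 0, and 1 member had an unadjusted p under 0.05. That member, CSLB6, had 1.3, 1.01, 0.918 and 0.778 CPM in the OE libraries against 1.84, 1.33, 2.57 and 2.16 CPM in WT. Its OE libraries all lay below its WT libraries, as did those of 12.4% of all genes tested, with no other member doing so. Its log2 fold change was -0.98 ± 0.25 (adjusted p = 0.0350, edgeR), just short of the fold threshold. Without OE replicate 1 or without WT replicate 2 it was called, at -1.13 each.

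None of the other members passed the test. CSLB3 had 3.49, 8.28, 21.4 and 28.8 CPM in the OE libraries after 7 days, against 27.3, 19.7, 59.5 and 58.1 CPM in WT. CSLB4 had 17.3, 23.7, 54.8 and 58.3 CPM in the OE libraries, against 46.5, 42.1, 97.5 and 92.9 CPM in WT. In both genes the groups overlapped, and within each genotype replicates 3 and 4 lay above replicates 1 and 2. The log2 fold changes were -1.41 ± 0.63 for CSLB3 (adjusted p = 0.162) and -0.86 ± 0.45 for CSLB4 (adjusted p = 0.223, edgeR). CSLG3 was at -0.99 ± 0.48 (adjusted p = 0.191) and CSLG1 at -1.18 ± 0.60 (adjusted p = 0.213, edgeR). CSLE1 had 24.8, 25.8, 38.1 and 49.2 CPM in the OE libraries against 27.7, 25.6, 51.1 and 46.5 CPM in WT. With its log2 fold change of -0.13 ± 0.30 (adjusted p = 0.786, edgeR), no difference in CSLE1 was detectable after 7 days. CSLB5 (0.42 ± 0.50) and CSLG2 (0.16 ± 0.62) were not called either.

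The parting of replicates 3 and 4 from 1 and 2 ran through the families at 7 days. In the OE line replicates 3 and 4 were both above replicates 1 and 2 in 6 of the 8 members (CSLB3, CSLB4, CSLE1, CSLG1, CSLG2 and CSLG3), as in 33.9% of all genes tested, and CSLB6 was below. In WT they were above in all 8 members, as in 33.3% of all genes tested. What set these libraries apart is not given in the sources used here. With the replicate number as a block, which pairs the libraries of both genotypes at 7 days, edgeR called 2 members lower: CSLB3 at -1.61 (adjusted p = 0.0109) and CSLG1 at -1.20 (adjusted p = 0.0126). Within replicates 1 and 2 edgeR called 2 of 7 members tested, CSLB3 at -1.99 and CSLB4 at -1.11. Within replicates 3 and 4 it called 5 of 9 members tested. These were CSLB6 (-1.48), CSLB3 (-1.23), CSLG1 (-1.15) and CSLG3 (-1.12) lower and CSLB1 (1.40) higher. CSLB1 did not pass the filter with all replicates. Calls over all genes rose too, from 801 in the fit without a block to 1147 with it. They were 1036 within replicates 1 and 2 and 1452 within replicates 3 and 4, so these shifts were not particular to the members.

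**Figure D4:**
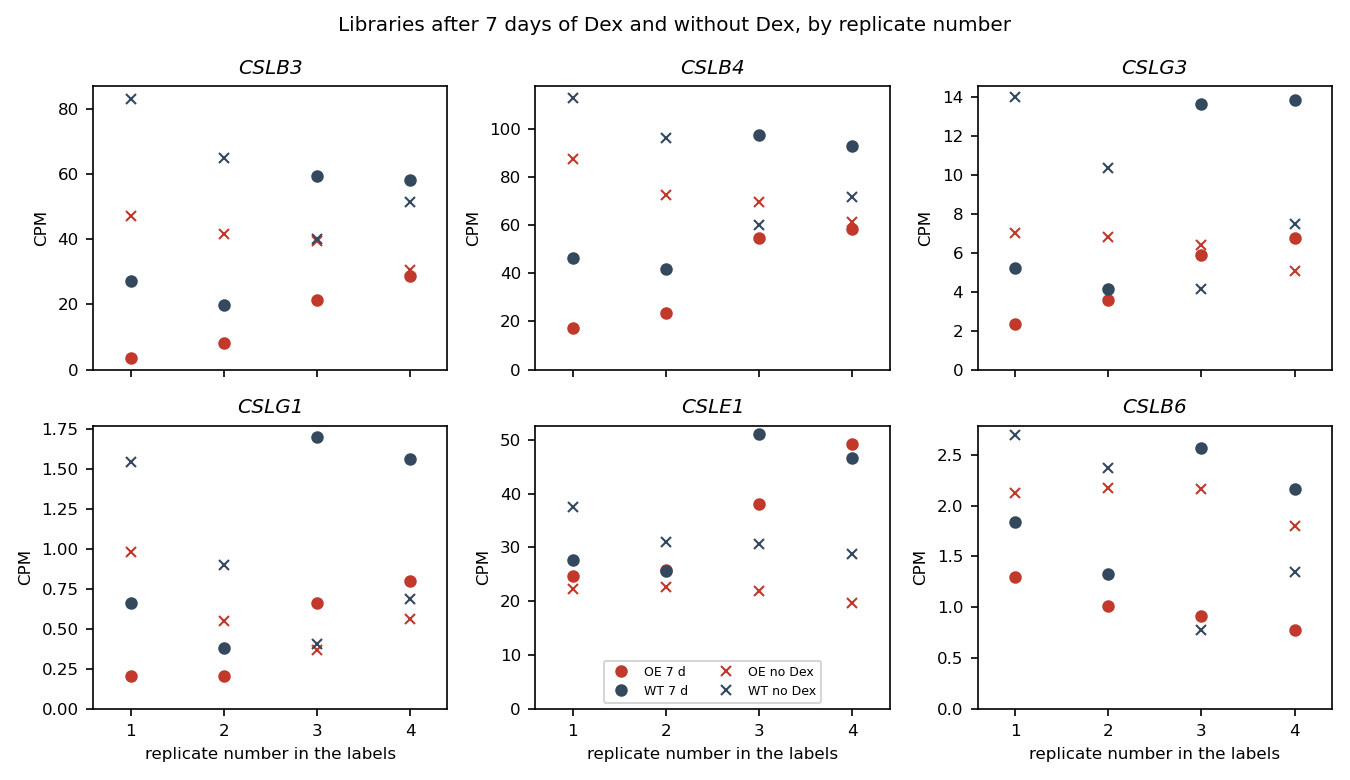
CPM of members by replicate number after 7 days on Dex (dots) and without Dex (crosses), for the OE line and WT. For CSLB3 after 7 days, replicates 3 and 4 lie above replicates 1 and 2 in both genotypes. In the OE line they are at 21.4 and 28.8 CPM against 3.49 and 8.28 CPM. Without Dex, replicates 3 and 4 of CSLB3 lie below replicates 1 and 2 in both genotypes. In the OE line they are at 39.5 and 30.6 CPM against 47.2 and 41.7 CPM.

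Against no Dex, the OE line after 7 days had 1 member lower of 7 tested, where 1.44% of all 20104 genes tested were called lower. CSLB6 fell to 0.778 to 1.3 CPM after 7 days, against 1.80 to 2.17 CPM without Dex (log2 fold change -1.04 ± 0.18, adjusted p = 0.00343, edgeR's quasi-likelihood test). The call was lost without OE replicate 3 (-0.99) or OE replicate 4 (-0.93) of the 7-day group and with exon counts (-0.85). CSLB3 (-1.35 ± 0.53, adjusted p = 0.0857) and CSLB4 (-0.92 ± 0.36, adjusted p = 0.0894, edgeR) missed the threshold. Without OE replicate 4 of the 7-day group both were called, at -1.82 and -1.17. CSLE1 was at 0.68 ± 0.21 (adjusted p = 0.0379, edgeR), higher but under the fold threshold. CSLG3 (-0.44 ± 0.30), CSLG1 (-0.39 ± 0.49) and CSLB5 (1.10 ± 0.47) did not pass. Within replicates 1 and 2 edgeR called CSLB3 (-2.90), CSLB4 (-1.96), CSLG1 (-1.90) and CSLG3 (-1.21) lower, among 1652 genes called. Within replicates 3 and 4 it called CSLB6 (-1.20) lower and CSLB1 (3.19) and CSLE1 (1.09) higher, among 2146 genes called. CSLB1 did not pass the filter with all replicates. It passed in this subset, with 14 and 16 counts after 7 days against 2 and 2 without Dex. The fit of all replicates called 1254 genes. The number did not pair these groups, as deviations of same-numbered libraries correlated at -0.316 to 0.00321. Nothing is therefore read from the calls within these subsets.

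In WT none of the 8 members tested differed between 7 days on Dex and no Dex by edgeR, where 0.00482% of all 20768 genes tested, a single gene, were called. No member had an unadjusted p under 0.05, and DESeq2 called 0. Splits by replicate number went opposite ways, however. Within replicates 1 and 2 edgeR called CSLB3 (-1.66), CSLB4 (-1.25) and CSLG3 (-1.39) lower, among 488 genes called. Within replicates 3 and 4 it called CSLB6 (1.14), CSLG1 (1.55) and CSLG3 (1.24) higher, among 1175 genes called. The number did not pair these groups, as deviations of same-numbered libraries correlated at -0.362 to -0.0614. Without Dex, replicates 3 and 4 lay below replicates 1 and 2 for CSLB3 in WT (40.0 and 51.5 against 83.1 and 65.0 CPM). The same held for CSLB4 and CSLG3. The split follows the parting of the 7-day libraries and this opposite one, so nothing further is read from the signs. Over all 4 replicates log2 fold changes ran between -0.54 ± 0.38 for CSLB3 and 0.53 ± 0.37 for CSLB5. CSLE1, which stood at 145 to 217 CPM in WT after 3 h, had 25.6 to 51.1 CPM after 7 days against 28.7 to 37.5 CPM without Dex. The difference between the responses of the genotypes at 7 days was called higher for 1 of 9 members, where 3.24% of all 21180 genes tested were called higher. This was CSLB1, at 2.91 ± 0.83 (adjusted p = 0.0374, edgeR). With all libraries it passed the filter on low counts in no pairwise contrast. Its higher means were in the OE line after 7 days (0.262 CPM) and in WT without Dex (0.161 CPM). Both groups enter this difference with a plus sign. The filter thus favoured a positive value, and nothing is read from the call. CSLB1 had 1, 11, 14 and 16 counts in the OE line after 7 days and 3, 3, 2 and 2 without Dex. In WT it had 2, 8, 9 and 10 counts after 7 days and 14, 4, 9 and 15 without Dex. The pooled ratio of 7 days to no Dex was 5.82 (95% interval 2.87 to 13) in the OE line and 0.718 (0.431 to 1.18) in WT, both for counting error only. With so few counts the call held only without OE replicate 2 or WT replicate 2 of the no-Dex groups, OE replicate 1, WT replicate 2 or WT replicate 3 at 7 days, and was lost, at 2.60 to 2.96, without any 1 of the other 11 libraries. CSLB6 was at -1.17 ± 0.44 (adjusted p = 0.112, edgeR) and was called without WT replicate 1 of the no-Dex group, at -1.44.

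Without Dex, none of the 8 members tested was called between the OE line and WT by edgeR's quasi-likelihood test, where 3.15% of all 20596 genes tested were called. DESeq2 called 0 as well, and 2 members had an unadjusted p under 0.05, CSLE1 and CSLB3. CSLE1 had 22.4, 22.6, 21.9 and 19.8 CPM in the OE libraries against 37.5, 31.1, 30.7 and 28.7 CPM in WT. It was lower in all 4 OE libraries, as were 11.3% of all genes tested, at a log2 fold change of -0.55 ± 0.09 (adjusted p = 0.00743, edgeR) that is under the fold threshold. CSLE1 was thus lower in the OE line without Dex too, where its log2 fold change was smaller than the -1.64 at 3 h. CSLB3 had 47.2, 41.7, 39.5 and 30.6 CPM in the OE libraries against 83.1, 65.0, 40.0 and 51.5 CPM in WT, at -0.58 ± 0.22 (adjusted p = 0.117, edgeR). CSLB4 (-0.22 ± 0.19), CSLG3 (-0.50 ± 0.31), CSLG1 (-0.49 ± 0.43), CSLG2 (-0.87 ± 0.65), CSLB5 (-0.14 ± 0.32) and CSLB6 (0.20 ± 0.34) did not pass.

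The 4 lowest members were near the limit of these libraries. CSLB2 had 0 to 14 counts per library, CSLB1 1 to 16, CSLG2 0 to 29 and CSLB5 1 to 41. CSLB2 had 2, 0, 0 and 0 counts in the OE line without Dex, against 10, 4, 2 and 14 counts after 3 h and 2, 3, 4 and 14 after 7 days. The pooled ratio to no Dex was 14 (95% interval 3.56 to 121) at 3 h and 15.9 (3.94 to 139) at 7 days, for counting error only, and the 2 counts it rests on came from 1 library. CSLG2 had 0, 7, 5 and 7 counts in the OE line after 3 h against 1, 5, 6 and 2 counts in WT. It did not pass the filter there, so this difference was not tested.

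CSLB3 and CSLB4 varied together. Their Pearson r of log2 CPM was 0.97 over the 24 libraries and 0.97 on deviations from the group means. The libraries share groups, depth and preparation, so this is a description, and some reads may fit both genes. CSLB4 and CSLG3 stood at 0.92 over all libraries and 0.93 within groups, though they lie on different chromosomes. CSLE1 behaved otherwise: with CSLB4 its r was -0.26 over all libraries but 0.81 within groups. The ratio of CSLB3 to CSLB4 CPM was not fixed. Its median was 0.430 (0.388 to 0.5) in the OE line and 0.560 (0.551 to 0.600) in WT after 3 h, and 0.551 (0.497 to 0.575) and 0.694 (0.664 to 0.734) without Dex. CSLB3 was thus the lower in proportion in the OE line, with no overlap between genotypes at either of these treatments. After 7 days the medians were 0.370 (0.202 to 0.494) in the OE line and 0.599 (0.469 to 0.626) in WT, and the ranges overlapped.

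Among 18229 genes with a mean of at least 1 CPM, the 3 with the pattern most like CSLB3, CSLB4, CSLG3 and CSLE1 over the 24 libraries were found by the r of log2 CPM. For CSLB3 these were CGLD27 (0.98), FAH1 (0.97), the ferulate 5-hydroxylase of lignin synthesis, and its neighbour CSLB4 (0.97). For CSLB4 they were SPS2, a solanesyl diphosphate synthase, AT5G19730 and SQE3, a squalene epoxidase of sterol synthesis, each at 0.98. For CSLG3 they were AT5G23920 (0.98), VTC5, a GDP-L-galactose phosphorylase of ascorbate synthesis (0.97), and GSR2, a cytosolic glutamine synthetase (0.97). For CSLE1 they were DOGT1 and UGT73B2, both glucosyltransferases, and DHAR2, a dehydroascorbate reductase, at 0.97 each.

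In the other families of the superfamily 3 genes were called between the OE line and WT at 3 h. Of all 20449 genes tested, 9.4% were called in either direction. Of the CSLA genes 1 of 8 tested was called, CSLA11, at 1.17 ± 0.14, and of the CSLC genes 1 of 5, CSLC12, at 1.63 ± 0.09. Of the CSLD genes 1 of 4 was called, CSLD5, at -1.12 ± 0.06, and of the CESA genes 0 of 9. Their median log2 fold changes were 0.0559 for CSLA, 0.607 for CSLC, 0.218 for CSLD and -0.445 for CESA, against -1.61 for the members, which were chosen for this contrast. The CESA genes lay between -0.955 and 0.481. No gene of these 4 families was called between the genotypes at 7 days or without Dex, where 3.88% and 3.15% of all genes tested were.

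**Figure D5:**
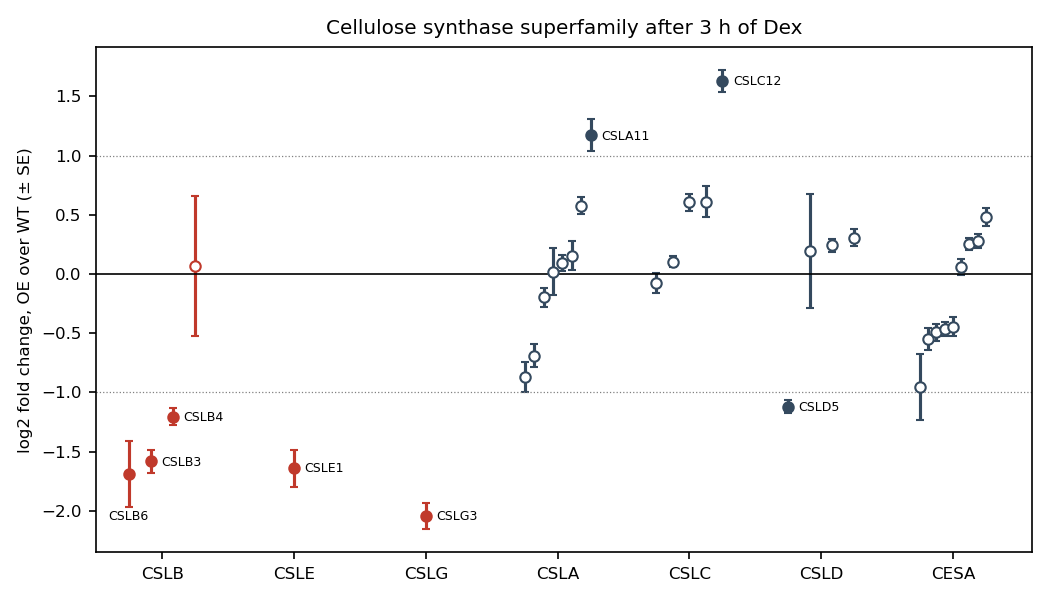
Log2 fold changes of the OE line against WT after 3 h of Dex for each tested gene of the CSLB, CSLE, CSLG, CSLA, CSLC, CSLD and CESA families; filled symbols mark called genes. The called CSLB, CSLE and CSLG genes lie between -2.04 and -1.20, and 1 gene each of CSLA, CSLC and CSLD is called.

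Between the CSLB pairs of chromosome 2 lie 5 other genes. They were added after their values were seen, so these values are a description and no p-value is given. AT2G32550, at chr2:13819379-13822839 just beyond CSLB4, was lower in the OE line than in WT after 7 days, with a log2 fold change of -1.33 ± 0.19. Against no Dex it fell by 1.44 ± 0.17 on the log2 scale in the OE line after 7 days. CSLB3 and CSLB4 were at -1.35 and -0.92 in that contrast. At 3 h it was at -0.72 between the genotypes, short of the fold threshold, and at -2.67 in the OE line and -2.17 in WT against no Dex. CSLB3 and CSLB4 were lower in both of these contrasts too. Of the other 4 genes of the interval, AT2G32560 was at -1.40 in WT after 3 h against no Dex and none was called between the genotypes.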

How the data were processed

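The members, the gene lists and the comparisons were chosen with earlier results of these data known. After trimming with Trimmomatic and alignment to TAIR10 by STAR, the authors deposited a table of estimated counts per gene (RSEM, expected counts, 3.82% of values not whole) and a table of exon counts (featureCounts). The labels and the paper name different library kits and read lengths, and the use of molecular identifiers before counting is not given in the sources used here. Genotype and treatment stand in each other's fields in the labels, so groups were taken from sample titles. All sample columns were used.

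Estimated counts were rounded and tested with edgeR 4.0.16 (filter by expression, TMM, quasi-likelihood) in R 4.3.3 on the 8 libraries of a pairwise comparison or the 16 of a difference between responses, with Benjamini-Hochberg adjustment over all genes tested. SE is the log2 fold change over the square root of F. Log2 CPM used a prior count of 2. With 1 to 3 counts in a group, and for CSLB1 at 7 days against no Dex, pooled counts were compared with a 95% interval. These pooled ratios were scaled by library totals without TMM, and the interval leaves out the spread between replicates. Tables and figures were made with Python 3.11.15, scipy 1.17.1, numpy 2.4.6, pandas 2.3.3 and matplotlib 3.10.9. Libraries held 33618231 to 82187350 estimated counts, and exon counts made up 83.3% to 97.8% of them.

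Named genes were the 10 members, the called genes of the CSLA, CSLC, CSLD and CESA lists, and the 3 genes most like each member with a mean of at least 1 CPM (those of CSLB6 are not reported here); the neighbours of the members were added after their values were seen. Marker lists covered shoot (8 genes), root (10) and seed (11). Start regions came from the RefSeq TAIR10.1 genome, in which 97.9% of 121040 introns taken from the deposited exon coordinates began with GT and ended with AG.

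Same-numbered libraries deviated together by the rule set (correlation over 0.1 in every pair) between the genotypes at 7 days, at 0.160 to 0.486 (4 of 8 libraries were closest to the library of the same number); no source states a pairing. Alternatives were DESeq2 1.42.0, exon counts, scaling by library totals or by RLE, a minimum of 10 counts per library or no minimum, calls by adjusted p alone or by glmTreat at a log2 fold change of 1, a fit of all 24 libraries, EXPA1 left out, the replicate block, replicates 1 and 2 or 3 and 4 only at 7 days, each library left out, and coding length for RPKM. On simulated data with 200 changed genes the pairwise tests recovered 177 to 194, with 1.57% to 4.84% false calls. All planted changes were past the fold threshold, and the libraries were drawn as independent. The parting of replicates at 7 days was not simulated, so this recovery does not carry over to the 7-day contrasts or to smaller changes.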

Additional observations from a re-analysis of the deposited data

Results flagged for a closer look

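In 6 of 60 sets of 4 libraries (10 members by 6 groups), 1 library lay far from the other 3. How often chance marks such a set was not computed, and most of these sets hold few counts. The gap to the nearest library over the whole range was 1 for CSLG1 in the OE line after 3 h of Dex, with 3, 0, 0 and 0 counts, and 1 for CSLB2 in the OE line without Dex, with 2, 0, 0 and 0 counts. It was 0.841 for CSLB2 in the OE line after 7 days (14 counts in replicate 4, at most 4 in the others), 0.843 for CSLB5 in WT after 7 days and 0.859 for CSLB1 in WT after 3 h. For CSLB6 in the OE line without Dex it was 0.880, although its values spanned only 1.80 to 2.17 CPM.

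The change with Dex differed between the genotypes in 6 members at 3 h. The difference, the log2 change in the OE line minus that in WT, was -1.92 for CSLB6, -1.57 for CSLG3, -1.11 for CSLE1, -1.03 for CSLB3, -1.01 for CSLB4 and 2.26 for CSLB1. These are values of a contrast that was in view when the members were chosen. At 7 days CSLB1 differed, at 2.91, on 1 to 16 counts per library. With all libraries it passed the filter on low counts in no pairwise contrast, so nothing is read from this value.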

How the results depend on the processing

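Of 195 counts of members recomputed under an alternative, 155 kept the count of the reported result within 1.5 times and 40 did not; of 1493 fold changes, 1366 kept their direction and side of the threshold and 38 reversed. Causes were not tested. Calls over all genes also moved with the block and within the pairs of replicates, as given above. Between the OE line and WT after 7 days the count of 0 became 1 with no fold threshold or with all 24 libraries in 1 fit, 2 with the replicate block, 2 within replicates 1 and 2, 5 within replicates 3 and 4 (CSLB1 higher), and 0 to 1 without 1 library. Without Dex it became 1 with no fold threshold. In WT after 3 h the count of 4 became 1 when glmTreat tested against a 1-unit log2 change, and in the difference between responses at 3 h the count of 6 became 0 under the same test. In WT after 7 days the count of 0 became 3 within replicates 1 and 2 (CSLB3, CSLB4 and CSLG3 lower) and 3 within replicates 3 and 4 (CSLB6, CSLG1 and CSLG3 higher). In the OE line after 7 days against no Dex the count of 1 became 0 with exon counts, library totals or glmTreat, 2 with no fold threshold, 3 with no filter, all 24 libraries in 1 fit or replicates 3 and 4, 4 within replicates 1 and 2, and 0 to 2 without 1 library. In the difference between responses at 7 days the count of 1 became 0 with no filter, with a minimum of 10 counts per library, with glmTreat, with the replicate block or replicates 1 and 2, 3 within replicates 3 and 4, and 0 to 1 without 1 library.

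The replicate block also turned CSLB5 between the genotypes at 3 h to -0.0694, CSLB6 in WT after 3 h to 0.0382 and CSLG3 in WT after 7 days to -0.0431, none of them called. It called CSLG1 in the difference between responses at 3 h (-2.72), and otherwise changed no call but those counted above. Within replicates 1 and 2, the direction in WT after 7 days reversed for CSLB6 (-0.68), CSLE1 (-0.37), CSLG1 (-1.23) and CSLG3 (-1.39), and that of CSLG3 in the difference between responses (0.17). Within replicates 3 and 4 it reversed for CSLB3 (0.37) and CSLB4 (0.54) in WT, for CSLG1 (0.65) and CSLG3 (0.17) in the OE line, and for CSLB5 between the genotypes (-0.0023). Without 1 library, ranges crossed 0 between the genotypes for CSLB5 at 3 h (-0.27 to 0.46), CSLG2 (-0.23 to 0.46) and CSLE1 (-0.35 to 0.0517) after 7 days, and CSLB5 (-0.32 to 0.0350) and CSLB6 (-0.0399 to 0.47) without Dex. They also crossed 0 in WT for CSLB6 at 3 h (-0.35 to 0.15) and, after 7 days, for CSLB6 (-0.11 to 0.40), CSLG1 (-0.0154 to 0.70), CSLG2 (-0.46 to 0.23) and CSLG3 (-0.23 to 0.33). The same held for CSLB5 in the OE line at 3 h (-0.47 to 0.26) and in the difference between responses at 3 h (-0.13 to 0.60). Levels moved by over 1 SD in 9 of 180 values, 7 of them with exon counts for CSLB5, CSLB6 and CSLE1.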
